A study of Mus musculus with 10 samples.

Results

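The NF-kB subunit and inhibitor genes are 10 named genes: the cytoplasmic inhibitors Nfkbia, Nfkbib and Nfkbie, the nuclear inhibitor-like proteins Nfkbid, Nfkbiz and Bcl3, the ubiquitin editor Tnfaip3, and the subunits Nfkb1, Nfkb2 and Rela. They were taken by symbol from the probe sets that name a single gene. This gave 9 genes with 1 probe set each, of 19938 genes in all, and each of the 9 passed the filter on dim signals that left 14070 genes. No probe set of the annotation used here names Nfkb1 alone, so Nfkb1 was not analysed here. Expression was measured on Affymetrix arrays in neutrophils that were enriched from mouse bone marrow on a Percoll gradient. The 4 groups were 2 arrays of fMLP-stimulated Lcn2 knockout cells, 2 of fMLP-stimulated wild type cells, 3 of unstimulated Lcn2 knockout cells and 3 of unstimulated wild type cells. Stimulated cells spent 20 minutes at 37 degrees with 10 micromolar fMLP, a peptide of the kind bacteria release that neutrophils sense through formyl peptide receptors. All groups are given as C57bl/6 females 10 weeks old. How the Lcn2 allele was made, whether each array was a separate animal and whether unstimulated cells were also warmed are not given in the sources used here. P-values therefore measure the spread between these arrays, which may be technical. The series asks what lipocalin 2, a granule protein that binds bacterial iron carriers, does in resting and stimulated neutrophils.

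NF-kB is a family of dimeric transcription factors held in the cytoplasm by inhibitor proteins called IkBs. When a receptor activates the IkB kinase (IKK), IkB is phosphorylated and destroyed, and dimers such as RelA with p50 enter the nucleus and switch on inflammatory genes. Several of these targets encode inhibitors of the same pathway, among them IkB alpha (Nfkbia) and A20 (Tnfaip3), so the response carries its own brake. The nuclear IkB-like proteins act on chromatin with p50 or p52 and can raise or lower the output of single genes. In neutrophils NF-kB serves the synthesis of cytokines and chemokines and the survival of the cells.

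NF-kB is known to act on genes of its own pathway. Stretches before a start are shown for 5 members, where they hold a match to the NF-kB site, and for Rela, where none was found. RefSeq (GRCm38.p6) start sites were matched by symbol for 8 members, all but Nfkbiz, and the 250 bases before each start were searched on both strands for the kB consensus, the 10-base site bound by NF-kB dimers. Capitals mark matches.
Nfkbid, chr7:30422156-30422405, plus strand: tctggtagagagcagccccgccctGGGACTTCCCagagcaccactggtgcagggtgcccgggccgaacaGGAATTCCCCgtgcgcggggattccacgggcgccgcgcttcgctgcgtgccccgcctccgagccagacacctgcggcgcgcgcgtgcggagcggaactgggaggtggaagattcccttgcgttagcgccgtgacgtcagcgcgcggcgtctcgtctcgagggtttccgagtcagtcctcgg
Tnfaip3, chr10:19015411-19015660, minus strand: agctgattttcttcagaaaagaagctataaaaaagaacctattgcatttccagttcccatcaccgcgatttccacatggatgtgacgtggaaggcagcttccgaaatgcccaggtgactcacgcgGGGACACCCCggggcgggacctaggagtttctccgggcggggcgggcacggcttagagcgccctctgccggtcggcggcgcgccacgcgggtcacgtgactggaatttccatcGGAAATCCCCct
Nfkb2, chr19:46304487-46304736, plus strand: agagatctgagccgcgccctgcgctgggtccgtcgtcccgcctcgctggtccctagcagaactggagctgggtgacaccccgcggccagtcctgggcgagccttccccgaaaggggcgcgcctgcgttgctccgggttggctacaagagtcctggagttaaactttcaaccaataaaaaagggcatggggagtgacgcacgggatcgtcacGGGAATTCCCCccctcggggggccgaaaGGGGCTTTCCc
Nfkbie, chr17:45555450-45555699, plus strand: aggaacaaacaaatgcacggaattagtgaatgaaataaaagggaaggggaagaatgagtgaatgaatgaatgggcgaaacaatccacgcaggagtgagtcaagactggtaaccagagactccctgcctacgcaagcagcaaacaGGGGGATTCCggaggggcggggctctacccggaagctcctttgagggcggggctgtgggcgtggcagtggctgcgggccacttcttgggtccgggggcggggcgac
Nfkbia, chr12:55492648-55492897, minus strand: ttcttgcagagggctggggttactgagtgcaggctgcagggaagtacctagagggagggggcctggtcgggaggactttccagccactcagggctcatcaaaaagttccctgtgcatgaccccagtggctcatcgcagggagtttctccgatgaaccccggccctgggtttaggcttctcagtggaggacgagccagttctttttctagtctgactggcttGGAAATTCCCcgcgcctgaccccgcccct
Rela, chr19:5637291-5637540, plus strand: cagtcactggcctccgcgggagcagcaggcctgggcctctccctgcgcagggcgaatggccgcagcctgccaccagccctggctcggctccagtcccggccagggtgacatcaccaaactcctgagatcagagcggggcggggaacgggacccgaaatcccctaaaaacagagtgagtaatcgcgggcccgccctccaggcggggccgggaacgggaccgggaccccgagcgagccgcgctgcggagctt
A match was present before at least 1 start of 5 of the 8 members, Nfkbid, Tnfaip3, Nfkb2, Nfkbie and Nfkbia, and before 8.23% of all 27025 genes with such a stretch. By start site it was present in 7 of the 13 member stretches and in 7.25% of 32851 stretches. Nfkbid has 3 starts, of which the one shown holds both of its matches, Tnfaip3 has 2 and Nfkb2 has 3. The Nfkb2 starts that are not shown hold 1 further match each, and their stretches overlap. The stretches shown for Nfkbid and Nfkb2 lie within the gene spans given below, and that of Rela overlaps its span in part. The first 2 matches of Nfkb2 overlap by all but 1 base and are written as a single run. For Nfkbib, Bcl3 and Rela these letters were not found in the window. A match is a description of the sequence and was not tested as a binding site.

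Values are RMA signals on the log2 scale, and the arrays differed in ways that bear on every member. Array set 1, which holds unstimulated replicates 1 and 2 of both genotypes, spread less than array set 2, which holds all others, with interquartile ranges over the probe sets of 1.64 to 1.68 and 2.47 to 2.59. In unstimulated cells all 9 members were lower on set 1 than on set 2, with a median difference of -0.97 and a range of -1.84 to -0.04, against a median of -0.09 over all tested genes. The fMLP arrays were therefore set against unstimulated replicate 3 of the same genotype, the 1 unstimulated array of each genotype in set 2. A further array that stood apart was replicate 2 of fMLP knockout. The summed signal of 8 neuron genes was 14.86 there and 10.58 to 10.68 on the other fMLP arrays, and that of 10 neutrophil genes was 16.58 there and 16.96 to 17.05 on the others. The 10 neutrophil genes lay at or above the percentile 97.2 of all probe sets on each array. Of these 10 genes 2 were higher after fMLP than on unstimulated replicate 3, with a median difference of -0.18. The fMLP arrays also differed from unstimulated replicate 3 in markers of other cells. Genes were counted by their mean over all 4 fMLP arrays, knockout replicate 2 included. All 8 monocyte genes (summed signal 11.41 to 12.30, against 13.12 and 13.63) and all 5 eosinophil genes (10.55 to 11.47, against 13.70 and 13.62) were lower, while 4 of 5 B cell genes (13.28 to 14.34, against 13.60 and 13.18) and 4 of 4 T cell genes (10.44 to 11.59, against 10.15 and 9.94) were higher. Sex-linked genes went against the label female in part. The X-inactivation RNA Xist read 9.83 to 11.12 after fMLP, against 6.88 to 7.82 in unstimulated cells, and the Y-linked gene Eif2s3y read 5.36 to 6.48 after fMLP, against 9.59 and 9.83 on unstimulated replicate 3 and 6.77 to 7.22 on set 1. These differences lie along the same arrays as every fMLP comparison below, and their part in it was not tested. In such mixed cell samples fewer cells of a type and less RNA per cell cannot be told apart. Lcn2 itself read 8.42 and 9.60 in fMLP knockout cells, 14.13 and 14.16 in fMLP wild type cells, 8.09 to 9.20 in unstimulated knockout cells and 13.88 to 14.02 in unstimulated wild type cells.

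After fMLP the members fell into a graded order, led by Nfkbid and Tnfaip3, with Nfkb2, Nfkbiz and Nfkbie between and Nfkbib, Nfkbia, Rela and Bcl3 at the low end. Averaged over genotype with all arrays, the differences ran from -0.10 to 1.51 with a median of 0.41 for the 9 members, against a median of -0.02 for all tested genes. None of the 9 passed limma's test at an adjusted p below 0.05, where 0.0853% of all tested genes were called higher, and 4 of 9 were higher at an unadjusted p below 0.05, against 4.81% of all tested genes. Without fMLP knockout replicate 2 the median was 0.64, and 6 of the 9 rose by limma, against 4.36% of all tested genes that rose and 2.35% that fell. The 6 were Nfkbid, Tnfaip3, Nfkb2, Nfkbiz, Nfkbie and Nfkbib. The fit without knockout replicate 2 had 3 residual degrees of freedom. Its spread came from the fMLP wild type pair and the pairs of array set 1. The gap between the knockout replicates no longer counted, and unstimulated replicate 3 added no spread of its own. The median residual SD over genes was 0.116, against 0.176 with all arrays. The 3 remaining fMLP arrays lay above both unstimulated arrays of set 2 for all 9 members, and for 26.8% of all tested genes. All 4 fMLP arrays did so for 3 members, Nfkbid, Tnfaip3 and Nfkb2, and for 11.9% of all tested genes.

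**Figure D1:**
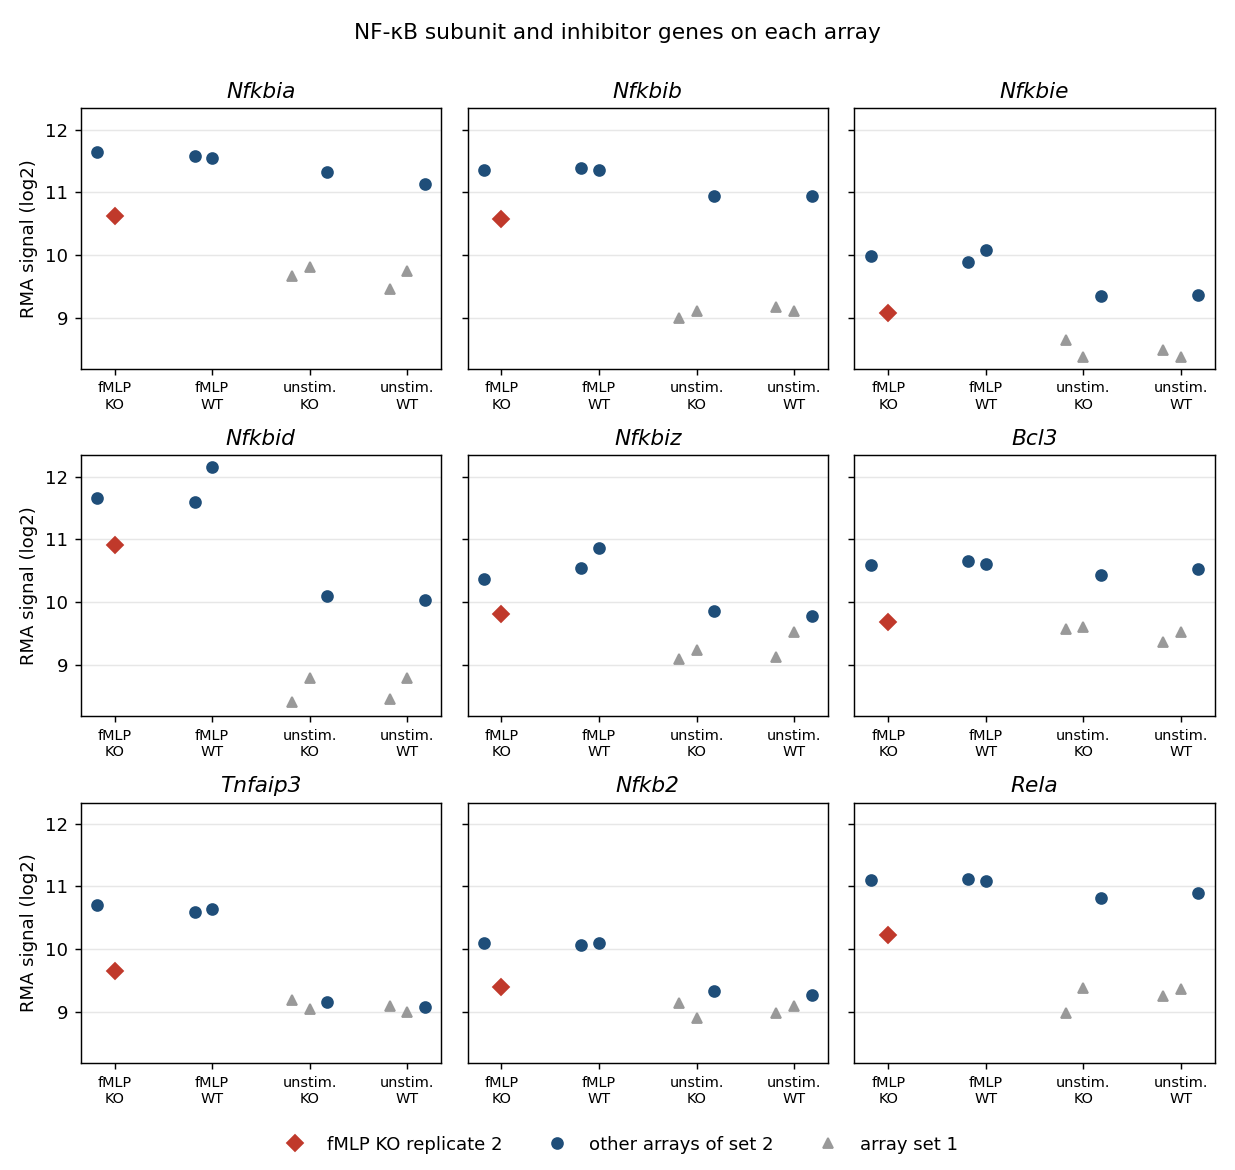
RMA signal (log2) of the 9 measured members on each of the 10 arrays, in 4 groups, with 1 point per array. Red diamonds mark fMLP knockout replicate 2, blue circles the other arrays of set 2 and grey triangles array set 1. Blue fMLP points lie above blue unstimulated points in every panel, most clearly for Nfkbid and Tnfaip3, while grey points lie low for most genes and the red point is below the other fMLP points in all 9.

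Nfkbid (Entrez gene 243910, chr7:30421731-30428749) encodes the nuclear IkB protein IkBNS, a regulator of NF-kB bound to DNA. Its signal was 11.65 and 10.91 in fMLP knockout cells and 11.59 and 12.15 in fMLP wild type cells, against 10.09 on knockout and 10.03 on wild type unstimulated replicate 3. On the set 1 arrays it was 8.40 and 8.78 in unstimulated knockout cells and 8.46 and 8.79 in unstimulated wild type cells. Each fMLP array lay above each unstimulated one. The fMLP difference was 1.51 (SE 0.26, 95% interval 0.89 to 2.13, limma adjusted p = 0.151), a 2.85-fold difference, and it ranked 21 among the 14070 genes from the highest difference down. Without fMLP knockout replicate 2 it rose by 1.70 (95% interval 1.27 to 2.13, limma adjusted p = 0.00217), or 3.25-fold. Wild type replicate 2 was the highest of the fMLP arrays, at 2.12 above its unstimulated array, against 1.56 for wild type replicate 1 and 1.56 for knockout replicate 1.

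Tnfaip3 (Entrez gene 21929, chr10:19000910-19015410) encodes A20, which removes and adds ubiquitin chains on signalling proteins and so shuts IKK activation down. It read 10.70 and 9.65 in fMLP knockout cells and 10.60 and 10.65 in fMLP wild type cells, against 9.16 and 9.08 on knockout and wild type unstimulated replicate 3. Of all members it differed least between the array sets in unstimulated cells, at 9.18 and 9.05 in knockout and 9.09 and 9.0 in wild type cells on set 1. Over the 3 arrays of each genotype it averaged 9.13 ± 0.07 in unstimulated knockout cells and 9.06 ± 0.05 in unstimulated wild type cells (SD, n = 3). All 4 fMLP arrays lay above all 6 unstimulated arrays, which held for Nfkbid, Tnfaip3 and Nfkb2 among the members and for 6.8% of all tested genes. The difference was 1.28 (SE 0.26, 95% interval 0.65 to 1.90, limma adjusted p = 0.215). Leaving out fMLP knockout replicate 2 gave a rise of 1.54 (SE 0.10, 95% interval 1.31 to 1.77, limma adjusted p = 0.000219), or 2.91-fold, with knockout replicate 1 at 1.54 and the wild type arrays at 1.52 and 1.56 above their unstimulated arrays.

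Nfkbiz (Entrez gene 80859, chr16:55811375-55838954) encodes the nuclear protein IkB zeta, needed for a subset of secondary inflammatory genes. Its signal was 10.37 and 9.80 in fMLP knockout cells and 10.55 and 10.86 in fMLP wild type cells, against 9.86 and 9.78 on knockout and wild type unstimulated replicate 3. The set 1 arrays read 9.09 and 9.24 in knockout and 9.12 and 9.52 in wild type cells. Knockout replicate 2 fell between the 2 unstimulated arrays, and the other 3 fMLP arrays were above both. The fitted difference was 0.58 (SE 0.20, limma adjusted p = 0.346) with all arrays, and a rise of 0.72 (SE 0.15, limma adjusted p = 0.0269) without knockout replicate 2.

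Bcl3 (Entrez gene 12051, chr7:19808462-19822824), the third nuclear member, encodes a partner of p50 and p52. It gave 10.59 and 9.68 in fMLP knockout cells and 10.66 and 10.60 in fMLP wild type cells, against 10.44 and 10.53 on knockout and wild type unstimulated replicate 3. Its 3 concordant fMLP arrays were only 0.07 to 0.15 above the unstimulated array of their genotype, while knockout replicate 2 was 0.76 below (difference -0.76). The difference was -0.10 (95% interval -0.66 to 0.45, limma adjusted p = 0.893), and 0.12 (95% interval -0.11 to 0.36, limma adjusted p = 0.551) without that array. The interval without it excludes a difference the size of those of Nfkbid or Tnfaip3.

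**Figure D2:**
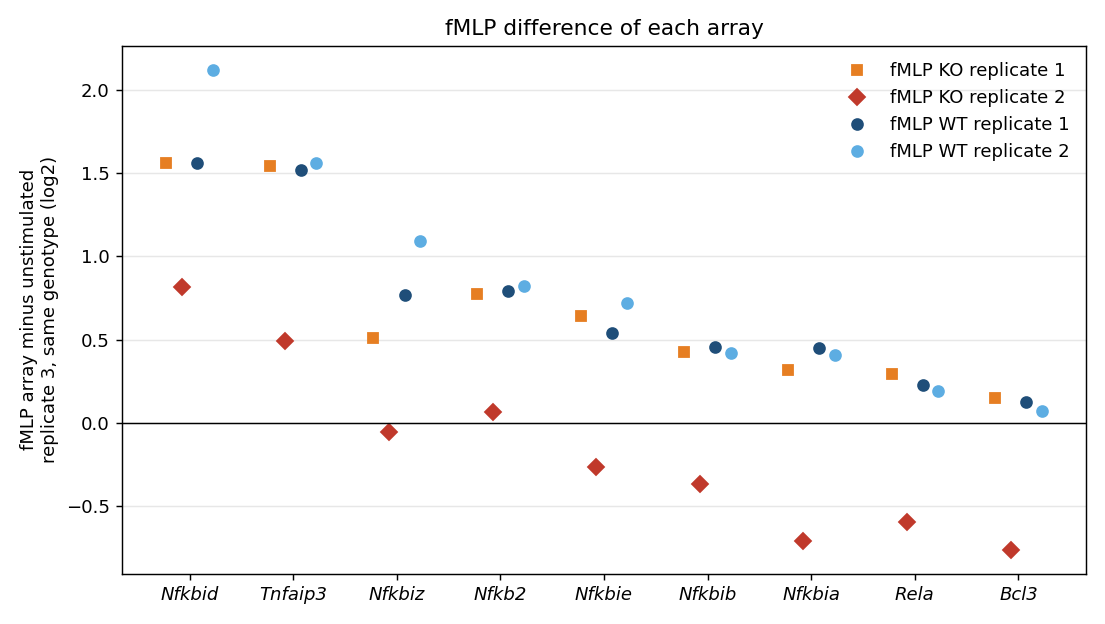
Difference of each fMLP array from unstimulated replicate 3 of the same genotype (log2), for the 9 members, with 1 point per array. Orange squares and red diamonds are knockout replicates 1 and 2, and dark and light blue circles are wild type replicates 1 and 2. Knockout replicate 1 lies with the wild type arrays for Tnfaip3 (1.54, 1.52 and 1.56), and knockout replicate 2 is lowest for all 9 genes.

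Of the cytoplasmic inhibitors, Nfkbie (Entrez gene 18037, chr17:45555700-45563169), which encodes IkB epsilon, read 9.99 and 9.08 in fMLP knockout cells and 9.89 and 10.07 in fMLP wild type cells, against 9.34 and 9.35 on knockout and wild type unstimulated replicate 3. Knockout replicate 2 lay below both unstimulated arrays and the other 3 above them. The difference was 0.41 (SE 0.24, limma adjusted p = 0.583), and without knockout replicate 2 a rise of 0.64 (95% interval 0.36 to 0.91, limma adjusted p = 0.0185). Nfkbib (Entrez gene 18036, chr7:28758251-28766644), which encodes IkB beta, read 11.36 and 10.57 in fMLP knockout cells and 11.39 and 11.36 in fMLP wild type cells, against 10.93 and 10.94 on knockout and wild type unstimulated replicate 3. Again 3 fMLP arrays were above and 1 below. Its difference of 0.23 (SE 0.21, limma adjusted p = 0.728) became a rise of 0.43 (95% interval 0.21 to 0.66, limma adjusted p = 0.0381) without that array.

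Nfkbia (Entrez gene 18035, chr12:55489409-55492647) encodes IkB alpha, the classical feedback inhibitor that NF-kB resynthesises after its destruction. It was already bright in unstimulated cells, at the percentile 94.0 of all probe sets on the knockout and 92.8 on the wild type array of set 2. The signal was 11.64 and 10.62 in fMLP knockout cells and 11.58 and 11.54 in fMLP wild type cells, against 11.32 and 11.13 on knockout and wild type unstimulated replicate 3. On set 1 it was 9.67 and 9.80 in knockout and 9.46 and 9.74 in wild type cells, so the gap between the array sets exceeded the gap to the fMLP arrays within set 2. The difference was 0.12 (95% interval -0.51 to 0.74, limma adjusted p = 0.894). Without knockout replicate 2 it was 0.37 (95% interval 0.11 to 0.64, limma adjusted p = 0.0976), which did not pass.

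Of the subunits, Nfkb2 (Entrez gene 18034, chr19:46300994-46312400), whose p100 product is both an inhibitor and the precursor of p52, gave 10.10 and 9.39 in fMLP knockout cells and 10.06 and 10.10 in fMLP wild type cells. Unstimulated replicate 3 gave 9.33 in knockout and 9.27 in wild type cells, and set 1 gave 9.13 and 8.90 in knockout and 8.99 and 9.09 in wild type cells. All fMLP arrays were above all unstimulated ones, knockout replicate 2 by the least. The difference was 0.61 (SE 0.20, limma adjusted p = 0.317), and without knockout replicate 2 a rise of 0.79 (95% interval 0.54 to 1.04, limma adjusted p = 0.00579), or 1.73-fold. Rela (Entrez gene 19697, chr19:5637442-5648134), the gene of the activating subunit p65, read 11.11 and 10.22 in fMLP knockout cells and 11.12 and 11.08 in fMLP wild type cells, against 10.81 and 10.89 on knockout and wild type unstimulated replicate 3. Its difference of 0.03 (95% interval -0.55 to 0.61, limma adjusted p = 0.972) became 0.25 (95% interval -0.05 to 0.55, limma adjusted p = 0.325) without knockout replicate 2. Rela did not pass in either fit.

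**Figure D3:**
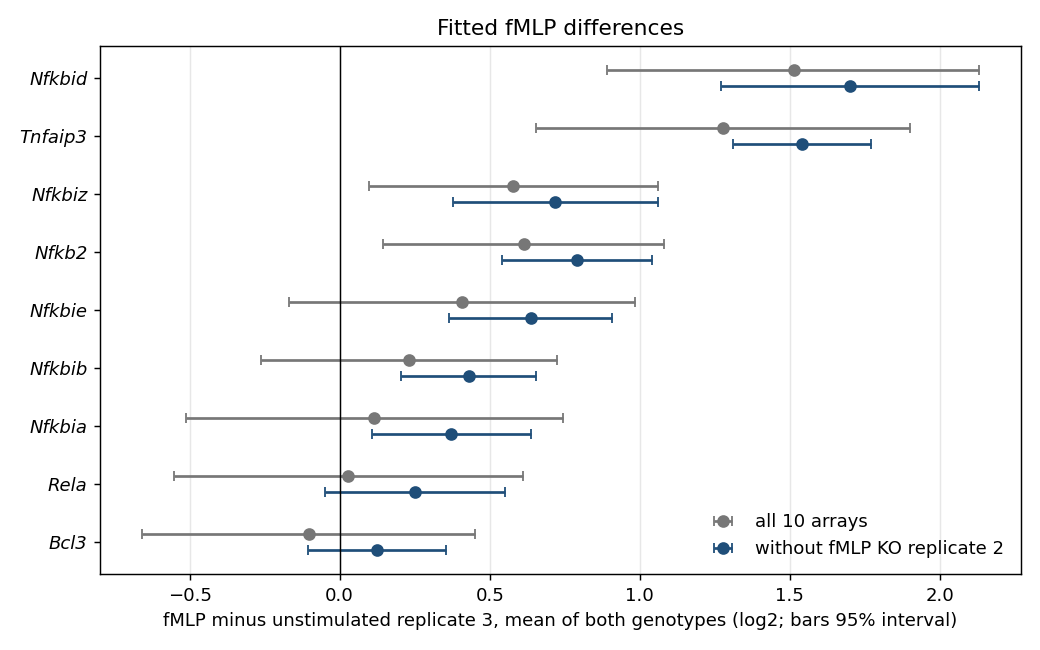
Fitted difference of fMLP from unstimulated replicate 3, averaged over genotype (log2), with 95% intervals from limma for the 9 members. Grey is the fit to all 10 arrays and blue the fit without fMLP knockout replicate 2, in which the intervals of Tnfaip3 (1.31 to 1.77) and Nfkb2 (0.54 to 1.04) do not overlap.

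Within each genotype Nfkbid and Tnfaip3 again had the highest differences. In wild type cells differences ran from 0.10 for Bcl3 to 1.84 for Nfkbid, with Tnfaip3 at 1.54, Nfkbiz at 0.93 and Nfkb2 at 0.81. With all arrays 0 of the 9 were called by limma and 4 were higher at an unadjusted p below 0.05, against 3.02% of all tested genes. The shared spread includes the gap between the knockout replicates, and without fMLP knockout replicate 2 the same wild type differences passed for Tnfaip3 (limma adjusted p = 0.0017), Nfkbid (0.0123) and Nfkb2 (0.035), against 1.02% of all tested genes called higher. In knockout cells 0 of 9 were called and 2 were higher at an unadjusted p below 0.05, against 2.13% of all tested genes. These were Nfkbid (1.19) and Tnfaip3 (1.02). With knockout replicate 1 alone, Tnfaip3 rose by 1.54 (limma adjusted p = 0.0065), where 0.242% of all tested genes were called higher. Nfkbid was at 1.56 there (limma adjusted p = 0.0746). With knockout replicate 2 alone, Tnfaip3 rose by 0.49 (limma adjusted p = 0.0381), the 1 member called higher, against 10.7% of all tested genes. On the same array Bcl3 (-0.76, limma adjusted p = 0.0056) and Nfkbia (-0.71, 0.015) fell, against 19.9% of all tested genes that fell. A cell with a single array has no spread of its own and was assumed to vary like the others.

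No difference in fMLP response between the genotypes passed limma's test of the interaction, which called 0 of the 9 members, with 0 at an unadjusted p below 0.05, against 0.0924% of all tested genes. The knockout minus wild type difference of the responses was -0.70 for Nfkbiz to -0.36 for Rela, with 95% intervals reaching from -1.89 to 0.80. It was below 0 for all 9, while 39% of all tested genes lay above 0 (median -0.08). Without fMLP knockout replicate 2 it ran from -0.42 for Nfkbiz to 0.08 for Rela, and for Tnfaip3 it was 0.0025 (95% interval -0.46 to 0.46). When replicate 1 was left out in its place, 6 members were called lower in the knockout response, against 11.3% of all tested genes. With the same array left out, the average over genotype had 3 members called higher, Nfkbid, Tnfaip3 and Nfkb2, against 10.2% of all tested genes, and 1 called lower, Bcl3 (-0.33, limma adjusted p = 0.0425), against 14.6%. With knockout replicate 1 alone, 5 of the 9 differences in response were below 0, and with knockout replicate 2 alone all 9 were. The shares over all tested genes are not given for these counts.

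Between knockout and wild type cells after fMLP, with all arrays, the difference ran from -0.62 for Nfkbiz to -0.33 for Nfkb2. It was above 0 for 0 of the 9 and for 43.3% of all tested genes. Limma called 0 of the 9 and 0 of all tested genes, so Lcn2 itself was not called either. At an unadjusted p below 0.05, 1 member, Nfkbiz, was lower, against 3.68% of all tested genes. For the fits with 1 knockout array, the share of all tested genes below 0 is not given. With knockout replicate 1 alone the differences were -0.34 to 0.08, with 4 of 9 below 0. With knockout replicate 2 alone they were -0.97 to -0.69, below 0 for all 9. On that array the members lay -1.0 to -0.69 from the mean of the other fMLP arrays, with a median of -0.89, against a median of -0.11 over all tested genes, of which 26.0% lay below -0.5. The member farthest down was Tnfaip3, at the percentile 4.68 of all tested genes, and the least was Nfkb2, at the percentile 16.7.

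**Figure D4:**
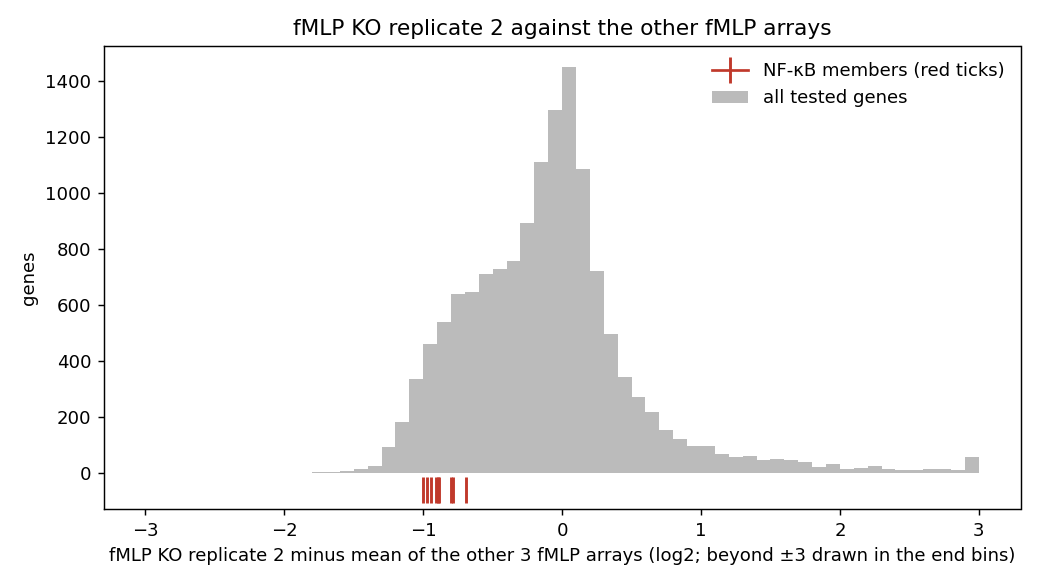
Distribution over the 14070 tested genes of the difference between fMLP knockout replicate 2 and the mean of the other 3 fMLP arrays (log2), as grey bars of gene counts. Red ticks mark the 9 members, which lie between -1.0 and -0.69, in the lower flank of the distribution, whose median is -0.11.

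In unstimulated cells no member was found to differ between knockout and wild type. The difference, averaged over the 3 arrays of each genotype, was -0.11 for Rela to 0.15 for Nfkbia, with 0 of 9 called by limma, against 0.00711% of all tested genes called lower. At an unadjusted p below 0.05 there were also 0, against 0.185% higher and 0.192% lower of all tested genes. The 95% intervals reached from -0.65 to 0.75, so changes below that size are not excluded. Nfkbia was 0.135 higher in knockout cells within set 1 and 0.19 higher within set 2. Rela was lower in knockout cells in both sets, by differences of -0.12 and -0.08. Bcl3 and Nfkbiz changed sign between the sets, at 0.15 and -0.09 for Bcl3 and -0.15 and 0.08 for Nfkbiz.

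The members were followed by other genes on the 6 arrays of set 2, given here as a description over 6 arrays, among which knockout replicate 2 is the lowest fMLP array for every member. Closest to Nfkbid were Ets2, Trem1 and Slc3a2 (Pearson r of 0.999 each), and 154 genes had r above 0.95. Tnfaip3 was closest to Cd69, Mepce and Bhlhe40 (r of 0.999, 0.998 and 0.997), and Nfkbiz to Pttg1ip, Zfp131 and Cwc25 (0.996, 0.995 and 0.994). For Nfkbia the closest were Lcmt2, Ing3 and D17H6S56E-5, with 574 genes above 0.95, and for Rela they were Furin, Lrg1 and Lfng, with 953 genes above it. Between the 36 pairs of members r was 0.251 to 0.985 with a median of 0.866. Without knockout replicate 2 it was 0.655 to 1 with a median of 0.939. The r between pairs of other genes is not given, so these values are not shown to be particular to the members.

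The rest of the pathway was taken from 4 lists drawn up from general knowledge, and in all 4 limma called 0 genes for fMLP with all arrays. Both remaining subunits had fitted differences above 0. Rel, the gene of c-Rel, read 11.66 and 10.67 in fMLP knockout and 11.56 and 11.63 in fMLP wild type cells, against 11.24 and 11.29 on unstimulated replicate 3 (difference 0.12, limma adjusted p = 0.89). Relb, the partner of p52, differed by 0.38 (limma adjusted p = 0.369), with all 4 fMLP arrays at 8.68 to 8.77, against 8.30 and 8.40. On set 1 Relb read 8.73 and 8.35 in unstimulated knockout and 8.53 and 8.32 in unstimulated wild type cells. Knockout replicate 1 there lay within the fMLP range. Of 29 IKK, upstream kinase and adaptor genes 23 were tested. Of these 11 were higher, against 45.8% of all tested genes, and the median was -0.01. Bcl10, an adaptor that links antigen and Fc receptors to IKK, stood at -0.94 (limma adjusted p = 0.248), the kinase gene Tbk1 at -0.51, Map3k8 at -0.35 and Tab1 at 0.26. Without knockout replicate 2, Bcl10 fell (-0.72, limma adjusted p = 0.009) and Traf5, a receptor adaptor named here after its values were seen, rose (0.42, 0.0435), which is 1 of 23 in each direction, against 2.35% of all tested genes that fell and 4.36% that rose.

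Among 18 ubiquitin editors and partners of A20, 17 were tested. Of these 7 were higher, against 45.8% of all tested genes, and the median was -0.08. N4bp1 was at -0.51, Itch at -0.42, Commd1 at -0.25 and Rbck1, a subunit of the linear ubiquitin ligase, at 0.32, and none passed. Without knockout replicate 2, 2 of the 17 rose, against 4.36% of all tested genes, and 0 fell, against 2.35%. They were Rbck1 (0.48, limma adjusted p = 0.0332) and Rnf31 (0.43, 0.0411), the catalytic subunit of the same ligase, which was named after its values were seen. Of 28 early NF-kB target genes 21 were tested, 17 were higher, against 45.8% of all tested genes, and the median was 0.21. Cxcl2, a chemokine that draws neutrophils, read 11.64 and 11.35 in fMLP knockout and 11.55 and 12.50 in fMLP wild type cells, against 10.48 and 10.15 on knockout and wild type unstimulated replicate 3 (difference 1.44, limma adjusted p = 0.217). The chemokine genes Ccl3, Ccl4 and Ccl5 were at 1.98, 0.86 and 0.79 (limma adjusted p = 0.204, 0.171 and 0.204). Without knockout replicate 2, 5 of the 21 rose and 0 fell, against 4.36% of all tested genes that rose. They were Ccl3 (2.11), Cd83 (1.74), Cxcl2 (1.51), Ccl4 (0.92) and Ccl5 (0.90), of which the surface marker gene Cd83 was named after its values were seen.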

How the data were processed

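Signals of 10 Affymetrix arrays were deposited by the authors as RMA values made in Affymetrix Expression Console, per the submitters' processing notes. The log base is not stated, and the deposited values were taken as log2 from their range. RMA subtracts background, equalises the distributions of arrays processed together and summarises probes per probe set. Of 35556 probe sets 21789 name 1 gene, 1621 several and 12146 none, and 0 symbols changed in the RefSeq table. The brightest probe set stood for each of 19938 genes, and 14070 with at least 2 arrays above the overall median (8.18) were tested. Precision is limited by the number of arrays, which carry no depth.

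The fit took all 10 arrays in limma (version 3.58.1, under R 4.3.3), with a coefficient for each of 6 cells (both fMLP groups and, per genotype, unstimulated replicates 1 and 2 and replicate 3) and 4 residual degrees of freedom. Tests were two-sided, with Benjamini-Hochberg adjustment over all tested genes and a threshold of 0.05. Summed marker signals are log2 of the sum of unlogged signals. The fit was tested on simulated data. The members, lists and fits were chosen with earlier results of these data known. All members were named, with up to 4 genes of each further list by smallest p and, for 5 members, the 3 genes with the highest correlation. Alternatives were other blocks, array subsets, normalizations, filters, probe set summaries, variance moderation, array weights and leaving out each array.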

Additional observations from a re-analysis of the deposited data

How the results depend on the processing

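The counts of genes called over the whole table depended on fMLP knockout replicate 2 and on the treatment of the array sets. For fMLP averaged over genotype, 27 genes were called with all arrays, 48 with the array set as a block, 10 with 4 groups and no block, 0 with the 6 arrays of set 2 alone, 17 with median centring, 10 without a filter, 109 with array weights and 1428 with the array set block and without fMLP knockout replicate 2. That last alternative was chosen after seeing the data, as were those for knockout against wild type within set 1 and within set 2. Leaving out each array in turn gave 0 to 3492. For wild type alone 0 were called, and 11, 1, 1, 5, 228 and 724 with the array set block, no block, quantile normalization, variance trend, array weights, and the block without knockout replicate 2, with 0 to 201 on leaving out arrays. For knockout alone 0 were called, and 12, 1, 2, 3 and 303 with the array set block, no block, variance trend, array weights, and the block without knockout replicate 2, with 0 to 4301 on leaving out arrays. The interaction count was 0, and 0 to 2527 on leaving out arrays. Knockout against wild type gave 1 gene, Lcn2, in unstimulated cells, with 0 within set 1, 0 within set 2 and 0 to 1 on leaving out arrays. After fMLP it gave 0 genes, then 1 with the array set block, with no block, with quantile normalization, with the stricter filter, with the variance trend and with array weights, and 0 to 5888 on leaving out arrays. The cause was not tested.

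With the replicate number (1 against 2) as a block, 4 genes were called for fMLP averaged over genotype and 0 for knockout against wild type in unstimulated cells. The numbers share no stated source, so same-numbered arrays were not taken as pairs. The gene-wise differences of replicate 1 minus replicate 2 were correlated between groups, with values from -0.165 to 0.464. The highest was that of unstimulated knockout with unstimulated wild type cells of set 1. Replicate 3 of the unstimulated arrays has no partner after fMLP. Without an unstimulated replicate 3, the comparisons that use it could not be fitted.

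With all arrays 0 member differences were called, so none called there could turn its sign. Between alternatives signs did differ. Bcl3 averaged over genotype was -0.33 without fMLP knockout replicate 1 and 0.12 without replicate 2, and Nfkbia in knockout cells was -0.71 and 0.32 in the same order. Averaged over genotype and over 20 alternatives, Nfkbid ranged from 1.33 to 2.48 and was called in 4, Tnfaip3 ranged from 1.01 to 1.54 and was called in 4, and Nfkb2 ranged from 0.437 to 0.794 and was called in 3. Calls of members came only without fMLP knockout replicate 1, without replicate 2 (with or without the array set block) and with array weights. These were also the fits that called the most genes over the whole table. The other alternatives called no member. Nfkbia ranged from -0.14 to 1.16 and Rela from -0.193 to 1.10, with 0 calls each. Bcl3 ranged from -0.332 to 0.543 and was called lower in 1, without fMLP knockout replicate 1. The upper ends for Nfkbia and Rela came with 4 groups and no block, which sets fMLP against array set 1 as well. A change of sign in differences called in neither fit occurred in 5 of 180 member values for fMLP averaged over genotype. It occurred in 0 of 189 for fMLP in wild type cells and in 12 of 189 in knockout cells. For the difference in response it occurred in 4 of 171. For knockout against wild type it occurred in 16 of 180 in unstimulated cells and in 5 of 189 after fMLP.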
